A study of Mus musculus with 10 samples.

Results

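The 32 genes described here encode enzymes that build cholesterol and fatty acids, the proteins that sense and move sterols inside the cell, and a pair of pumps that export sterols. They were taken from a list of genes driven by the sterol regulatory element-binding proteins (SREBPs) and of sterol exporters. All 32 were found among the 18193 genes measured, each read from its brightest probe set, by the average of the 10 arrays. Arrays came from 5 groups of mouse T cells with 2 arrays each. Naïve CD4+ and naïve CD8+ T cells had been sorted from the spleen of wild-type C57BL/6 mice as TCRβ+ CD62L+ CD44- cells. The other groups were grown from such naïve cells and collected on day 25 of co-culture, in interleukin-2, on LMP1/2A+ B lymphoma lines that had been γ-irradiated, which were added again at intervals to restimulate them. These groups were CD4+ effector-memory (TEM) cells, CD8+ TEM cells (both labelled effector) and CD4+ memory cells (labelled CM in the titles). LMP1 and LMP2A are Epstein-Barr virus membrane proteins, and the stimulator lines came from B cells of mice that express both under Cγ1-Cre, a Cre active in germinal center B cells, after transfer into Rag2-/- or Rag2-/-γC-/- recipients. The ages of the mice, and whether the replicates came from separate animals or cultures, are not given in the sources used here, so the p-values measure the spread between these arrays, which may be technical.

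Cholesterol is made from acetyl-CoA through mevalonate, squalene and lanosterol, and the genes of nearly every enzyme on this route are switched on by SREBP-2, while SREBP-1 favors the genes of fatty acid synthesis and desaturation. When sterols are plentiful, Insig proteins hold the SREBPs in the endoplasmic reticulum, and oxidized sterols activate the liver X receptors, which switch on the export pumps Abca1 and Abcg1. T cells that leave rest and divide are known to need new membrane, and this program is known to be switched on in them.

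The promoters of 24 of the 32 genes were at hand as RefSeq windows of GRCm38.p6, each reaching from 250 bases before to 50 bases after the annotated start. Scd2, Stard4, Sqle, Scd1, Fdft1, Fads1, Fdps and Abcg1 had no window. Letters of 3 motifs were searched on both strands. These were TCACNCCAC, the core of a sterol regulatory element, CCAAT, the box bound by NF-Y, a partner of the SREBPs, and CACGTG, an E-box that basic helix-loop-helix factors, SREBP-1 among them, can bind. The 24 genes had 29 windows, as some have more than 1 start. CCAAT was in 21 of the 29 windows (20 genes) and in 37.4% of all 32851 windows of this length, CACGTG in 5 of the 29 (5 genes) and 7.15% of all, and TCACNCCAC in 1 of the 29 (1 gene) and 1.24% of all. The genes without CCAAT in any window were Abca1, Acaca, Elovl6 and Fads2. Matches are letters only, and no binding was measured. The 250 bases before the start are printed 5′ to 3′ on the gene's strand, with matches to the 3 motifs in capitals, for Hmgcs1 (chr13:119690101-119690350, plus strand), the only gene with TCACNCCAC, for Mvk (chr5:114444019-114444268, plus strand), with 5 CCAAT boxes, for Hsd17b7 (chr1:169969206-169969455, minus strand), with both CCAAT and CACGTG, for Fasn (chr11:120824548-120824797, minus strand), a fatty acid gene in which a pair of its 3 CCAAT boxes overlap on opposite strands, and for Abca1 (chr4:53159896-53160145, minus strand), the exporter, whose values moved in the opposite direction from those of the other 4.
Hmgcs1: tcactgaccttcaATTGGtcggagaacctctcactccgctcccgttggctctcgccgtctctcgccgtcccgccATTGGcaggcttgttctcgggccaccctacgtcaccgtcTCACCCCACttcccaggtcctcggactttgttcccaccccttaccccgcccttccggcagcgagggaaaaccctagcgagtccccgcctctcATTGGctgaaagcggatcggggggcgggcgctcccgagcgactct
Mvk: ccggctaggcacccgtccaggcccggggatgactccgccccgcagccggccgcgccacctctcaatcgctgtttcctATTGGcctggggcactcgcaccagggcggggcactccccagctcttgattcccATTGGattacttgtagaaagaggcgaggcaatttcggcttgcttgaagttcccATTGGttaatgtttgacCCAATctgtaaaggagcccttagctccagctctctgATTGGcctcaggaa
Hsd17b7: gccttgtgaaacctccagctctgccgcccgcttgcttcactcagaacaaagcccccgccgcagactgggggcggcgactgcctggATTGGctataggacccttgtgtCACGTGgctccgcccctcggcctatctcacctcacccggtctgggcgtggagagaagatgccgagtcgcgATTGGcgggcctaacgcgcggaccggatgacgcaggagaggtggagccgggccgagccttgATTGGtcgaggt
Fasn: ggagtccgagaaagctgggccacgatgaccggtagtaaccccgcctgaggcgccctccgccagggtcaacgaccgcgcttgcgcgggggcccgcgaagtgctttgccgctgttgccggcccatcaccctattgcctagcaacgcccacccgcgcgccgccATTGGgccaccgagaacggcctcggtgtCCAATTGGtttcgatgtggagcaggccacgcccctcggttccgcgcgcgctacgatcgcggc
Abca1: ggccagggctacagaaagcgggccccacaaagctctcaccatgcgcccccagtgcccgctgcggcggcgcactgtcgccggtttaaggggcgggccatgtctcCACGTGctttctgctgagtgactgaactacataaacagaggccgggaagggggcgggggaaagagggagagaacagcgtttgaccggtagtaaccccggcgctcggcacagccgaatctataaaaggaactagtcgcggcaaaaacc

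Expression values were on the log2 scale, so a difference of 1 is a 2-fold change. Array medians lay between 4.65 and 4.75. Of 120 readings of 12 genes listed as silent in T cells, 107 were under 6. Of the 12, 10 were under 6 on every array. The exceptions were Apoa2, from 5.83 to 7.61, and Tnnt2, at most 2.95 in naïve cells but 6.05 or higher in cultured cells. Values under 6 are treated here as close to the floor of the array. In 29 of the 32 genes every group mean was 6 or higher, the exceptions being Scd1, Fads2 and Abca1. The number of arrays limits the precision of every value.

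The labels were checked against marker genes. Cd3e read from 12.72 to 13.29 on all 10 arrays. Cd4 read from 11.50 to 11.89 on the 6 CD4+ arrays, 4.30 and 4.10 in naïve CD8+ cells and 6.51 and 6.89 in CD8+ TEM cells. Cd8b1 read from 10.98 to 11.54 on the 4 CD8+ arrays and from 4.94 to 5.63 on the others, and Cd8a read 7.67 and 8.17 in CD4+ TEM cells. Markers of B cells moved with the culture. The summed level of 9 of them, on the log2 scale, was 7.20 to 7.21 in naïve CD4+, 8.54 to 9.72 in naïve CD8+, 11.04 to 11.26 in CD4+ TEM, 11.24 to 11.80 in CD4+ memory and 11.40 to 11.58 in CD8+ TEM cells. Among them Ebf1 read from 10.19 to 10.82 in cultured cells and at most 5.56 in naïve cells. Vpreb3 read from 7.90 to 9.56 in cultured cells and at most 5.28 in naïve cells. Cd79b read 4.05 and 4.64 in naïve CD4+, 7.88 and 8.75 in naïve CD8+ and 8.41 to 9.60 in cultured cells. From naïve to TEM cells all 9 changes were positive in CD4+ cells and 5 of the 9 in CD8+ cells. Pax5 lay near the floor, at 3.58 to 4.33, on every array, also on the second naïve CD8+ array, where Ms4a1 read 7.02. The summed level of 7 myeloid markers was 6.79 to 7.28 in naïve CD4+, 7.91 to 9.22 in naïve CD8+, 8.29 to 8.48 in CD4+ TEM, 7.93 to 8.62 in CD4+ memory and 8.73 in both CD8+ TEM arrays. From naïve to TEM cells 5 of the 9 B cell and 2 of the 7 myeloid markers rose in CD4+ cells and 5 and 3 in CD8+ cells, and in memory cells 7 and 2 rose. Of 7 T cell markers 2 fell in CD4+ TEM, 3 in CD8+ TEM and 2 in memory cells. Over all genes 16.4%, 20.9% and 13.5% rose in CD4+ TEM, CD8+ TEM and memory cells, and 10.1%, 17.2% and 9.78% fell. The 3 erythroid markers lay under 6 in every group. The signal of the Gapdh control at its 3′ end minus that at its 5′ end, a measure of RNA integrity, was 2.42 to 2.75 in naïve cells and 0.91 to 1.72 in cultured cells. The same measure on Actb did not separate naïve CD4+ cells, at 1.46 and 1.24, from CD4+ TEM cells, at 1.48 and 1.49, or from memory cells, at 2.10 and 1.59, while naïve CD8+ cells, at 2.13 and 1.73, lay above CD8+ TEM cells, at 0.77 and 0.84. The part of these differences in the results below was not tested, and in such bulk samples a smaller share of cells expressing a gene and less RNA per cell cannot be told apart. The second naïve CD8+ array stood apart from the first, with Lyz2 at 8.70 against 5.20 and Ms4a1 at 7.02 against 3.15. Some of the results that use it are also given without it.

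From naïve to TEM cells most of the 32 genes rose in both lineages. In CD4+ cells 24 rose, 2 fell and 6 did not pass the test (limma, adjusted p under 0.05), where 16.4% of all genes rose and 10.1% fell. The median log2 change was 1.13, against 0.02 over all genes. In CD8+ cells 24 rose, 3 fell and 5 did not pass, where 20.9% of all genes rose and 17.2% fell. The median was 1.43, against 0.06 over all genes. Without the second naïve CD8+ array 23 rose and 2 fell. Of the 32 genes, 21 rose in both lineages and 2 fell in both, compared with 12.2% and 6.86% of all genes. The arrays of naïve and TEM cells did not overlap for 27 higher and 4 lower genes in CD4+ cells (33.8% and 29.3% of all genes) and for 26 higher and 5 lower genes in CD8+ cells (38.9% and 30.7% of all genes). Quantile normalization across arrays, which shifted the median change of all genes by -0.13 in each lineage, left 20 genes that rose and 2 that fell in CD4+ cells, where 12.9% of all genes then rose and 17.2% fell. It left 24 and 3 in CD8+ cells, where 18.9% and 20.1% did.

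**Figure D1:**
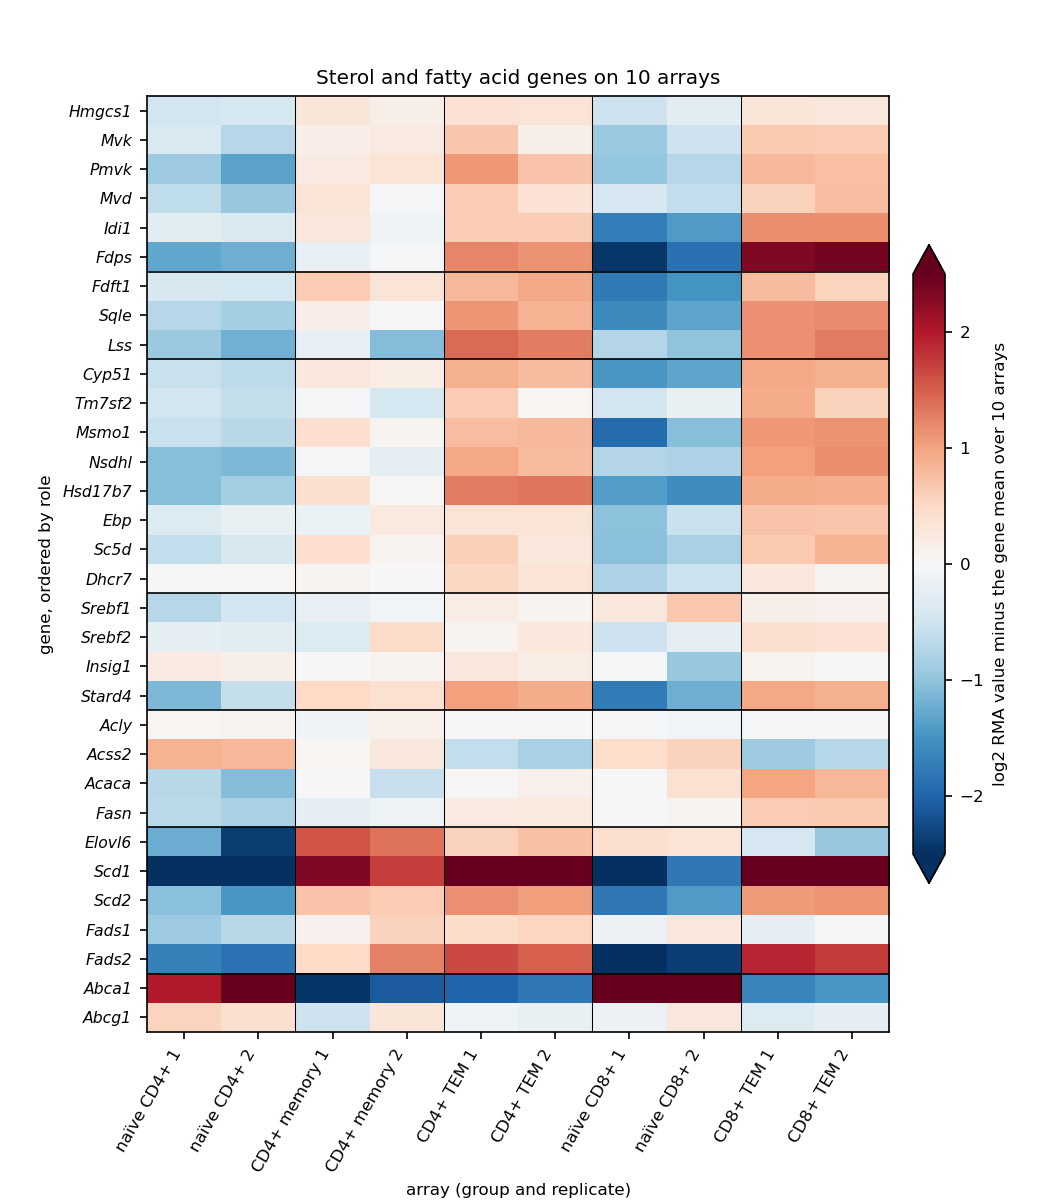
Heat map of the 32 genes (rows, in order of role, with lines between roles) on the 10 arrays (columns, by group and replicate). Color gives the log2 RMA value minus the mean of that gene over the 10 arrays. Scales end at 2.5 in either direction, which Scd1, Abca1 and, on the first naïve CD8+ array, Fads2 exceed. The sterol enzymes in the upper 17 rows are below their means on all naïve arrays except for values near the mean in Dhcr7, and Abca1 and Acss2 show the opposite pattern.

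All 6 enzymes of the mevalonate stretch, from HMG-CoA synthase to farnesyl diphosphate, rose in both lineages. Fdps, which makes farnesyl diphosphate, the branch point toward sterols, read 7.81 and 7.89 in naïve CD4+ and 10.34 and 10.23 in CD4+ TEM cells. It read 6.68 and 7.24 in naïve CD8+ and 11.43 and 11.51 in CD8+ TEM cells. The naïve and TEM arrays were far apart in both lineages, with the widest gap in CD8+ cells. The log2 change of Fdps was 2.44 ± 0.19 (SE, adjusted p = 5.1e-05), or 5.42-fold, in CD4+ cells and 4.51 ± 0.19 (adjusted p = 1.85e-06), or 22.8-fold, in CD8+ cells. Its other probe set had group means of 2.51 to 2.84, at the floor.

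Idi1, which isomerizes the isoprenoid unit, read 10.40 and 10.28 in naïve CD4+, 11.29 and 11.30 in CD4+ TEM, 8.94 and 9.25 in naïve CD8+ and 11.82 and 11.83 in CD8+ TEM cells. The naïve CD8+ arrays were the lowest of the 10 and the CD8+ TEM arrays the highest. It rose by 0.96 ± 0.17 in CD4+ and 2.73 ± 0.17 in CD8+ cells on the log2 scale. Hmgcs1, HMG-CoA synthase, which feeds the pathway, read 12.23 and 12.27 in naïve CD4+ and 13.08 and 13.03 in CD4+ TEM cells, a rise of 0.81 ± 0.14 or 1.75-fold (adjusted p = 0.00315). In CD8+ cells Hmgcs1 went from 12.19 and 12.42 to 13.02 and 13.01, a rise of 0.71 ± 0.14 (adjusted p = 0.00385). This is its brightest probe set, and the 4 others gave CD8+ changes of 1.11 to 1.74 and CD4+ changes of 0.22 to 1.23. Of the 3 kinase and decarboxylase genes that turn mevalonate into an isoprenoid, Pmvk rose by 2.02 and 1.63, Mvd by 1.30 and 1.19, and Mvk by 0.97 and 1.37 in CD4+ and CD8+ cells. Under quantile normalization the Mvk change in CD4+ cells was 0.54 and did not pass the test (adjusted p = 0.088).

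The 3 enzymes that join and fold squalene rose in both lineages. Sqle, squalene epoxidase, a rate-controlling oxygen-dependent step, read 8.60 and 8.46 in naïve CD4+, 10.40 and 10.17 in CD4+ TEM, 7.70 and 7.98 in naïve CD8+ and 10.44 and 10.48 in CD8+ TEM cells. Its TEM arrays all lay above 10 and its naïve arrays all under 9. The log2 rise was 1.75 ± 0.16 (adjusted p = 0.0001) in CD4+ and 2.62 ± 0.16 (adjusted p = 8.42e-06) in CD8+ cells. Lss, lanosterol synthase, which closes the sterol rings, read 7.44 and 7.17 in naïve CD4+, 9.78 and 9.65 in CD4+ TEM, 7.64 and 7.36 in naïve CD8+ and 9.51 and 9.67 in CD8+ TEM cells. It rose by 2.42 ± 0.27 and 2.09 ± 0.27. A further Lss probe set gave group means of 5.84 and 7.82 in CD4+ cells and of 7.24 and 7.26 in CD8+ cells, so the CD8+ rise is not seen with it. Fdft1, squalene synthase, rose by 1.31 ± 0.17 in CD4+ and 2.31 ± 0.17 in CD8+ cells.

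Of the 8 enzymes that convert lanosterol toward cholesterol, 6 rose in CD4+ and 8 in CD8+ TEM cells. Hsd17b7, a sterol ketone reductase, read 8.54 and 8.75 in naïve CD4+ and 10.89 and 10.94 in CD4+ TEM cells, a rise of 2.27 ± 0.16 or 4.82-fold (adjusted p = 2.96e-05). In CD8+ cells it went from 8.22 and 8.06 to 10.53 and 10.51, a rise of 2.38 ± 0.16 (adjusted p = 1.51e-05). The arrays of naïve and TEM cells did not overlap in either lineage. Nsdhl, the sterol decarboxylase of the same demethylation complex, rose by 1.96 ± 0.14 in CD4+ and 1.85 ± 0.14 in CD8+ cells. Cyp51, lanosterol demethylase, read 9.98 and 9.88 in naïve CD4+, 11.43 and 11.32 in CD4+ TEM, 9.08 and 9.21 in naïve CD8+ and 11.48 and 11.43 in CD8+ TEM cells. It rose by 1.44 ± 0.13 and 2.31 ± 0.13. Msmo1, the sterol methyl oxidase, rose by 1.41 ± 0.26 in CD4+ and 2.60 ± 0.26 in CD8+ cells, although its naïve CD8+ arrays differed from each other, at 7.51 and 8.37, and a further probe set changed by 1.34 in CD8+ cells. Sc5d, the sterol desaturase, rose by 0.95 and 1.70, and Tm7sf2, a sterol reductase, which read 6.46 and 6.35 in naïve CD4+ cells, by 0.88 and 1.09. The CD4+ call on Tm7sf2 was lost under 5 alternatives, among them quantile normalization, with a change down to 0.35 (adjusted p up to 0.313), and the CD8+ call when the first naïve CD8+ or the first CD8+ TEM array was left out (adjusted p up to 0.0623). A further Sc5d probe set had CD4+ group means of 7.62 in naïve and 7.28 in TEM cells. Ebp, the sterol isomerase, and Dhcr7, which makes cholesterol from its last precursor, changed by 0.59 ± 0.20 (adjusted p = 0.0622) and 0.42 ± 0.15 (adjusted p = 0.0725) in CD4+ cells and did not pass the test, while in CD8+ cells they rose by 1.49 ± 0.20 and 0.85 ± 0.15.

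**Figure D2:**
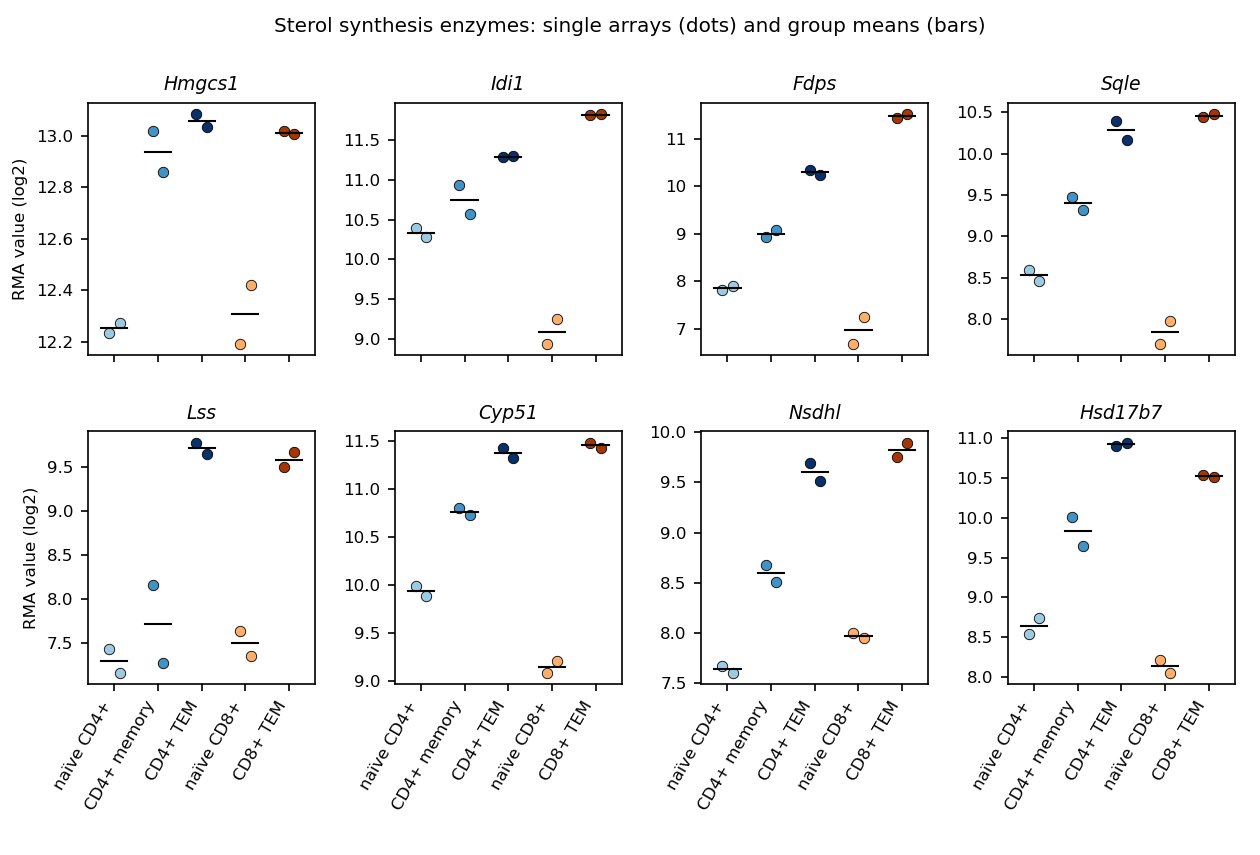
Log2 RMA values (vertical axes, scaled for each gene) of 8 sterol synthesis enzymes in the 5 groups. Each dot is 1 array and each bar the mean of 2 arrays. In every panel both TEM groups lie above both naïve groups, with CD4+ memory cells between naïve CD4+ and CD4+ TEM cells, and Lss memory arrays reach down to naïve values.

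Of the 4 genes of sterol sensing and transport, 2 rose in CD4+ and 2 in CD8+ cells. Srebf2, which encodes SREBP-2, read 9.86 and 9.83 in naïve CD4+ and 10.17 and 10.36 in CD4+ TEM cells, a change of 0.42 ± 0.25 that did not pass the test (adjusted p = 0.284). In CD8+ cells Srebf2 rose from 9.57 and 9.85 to 10.49 and 10.44, by 0.75 ± 0.25 (adjusted p = 0.044), a call that was lost when any 1 of the 8 naïve or TEM arrays was left out, with adjusted p up to 0.197. Srebf1, which encodes SREBP-1, read 8.88 and 9.12 in naïve CD4+ and 9.78 and 9.66 in CD4+ TEM cells, a rise of 0.72 ± 0.17 (adjusted p = 0.0159) that was lost under quantile normalization and without the first naïve CD4+ array or either CD4+ TEM array (adjusted p up to 0.102). In naïve CD8+ cells it already read 9.89 and 10.28, with 9.74 and 9.70 in CD8+ TEM cells, a change of -0.36 ± 0.17 that did not pass (adjusted p = 0.144). Insig1, the sterol-sensing anchor of the SREBPs and itself an SREBP target, read from 11.49 to 11.76 on the 6 CD4+ arrays and did not pass the test in either lineage. Its naïve CD8+ arrays differed, at 11.45 and 10.52, and its CD8+ change of 0.52 ± 0.26 became 0.06 without the second of them. Stard4, a cytosolic carrier of cholesterol, rose in both lineages. It read 9.93 and 10.45 in naïve CD4+, 12.07 and 11.98 in CD4+ TEM, 9.30 and 9.82 in naïve CD8+ and 12.01 and 11.93 in CD8+ TEM cells, which are rises of 1.84 ± 0.22 and 2.41 ± 0.22.

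Of the 4 genes that supply acetyl-CoA and build the first fatty acid, 2 rose and 1 fell in each lineage. Acly, ATP-citrate lyase, which makes cytosolic acetyl-CoA from citrate, read between 12.27 and 12.49 on all 10 arrays. Its log2 changes were -0.06 ± 0.13 in CD4+ and 0.03 ± 0.13 in CD8+ cells, the latter -0.08 under quantile normalization, and neither passed the test. Of its other probe sets above the floor, 1 had CD4+ and CD8+ changes of -0.02 and 0.40 and 1 of 0.21 and 0.92, with naïve and TEM arrays apart in CD8+ cells for both. Acss2, which makes acetyl-CoA from acetate instead and is an SREBP target too, read 11.46 and 11.43 in naïve CD4+, 9.97 and 9.78 in CD4+ TEM, 11.03 and 11.16 in naïve CD8+ and 9.68 and 9.87 in CD8+ TEM cells. All TEM arrays were under 10 and all naïve arrays above 11. It fell by 1.57 ± 0.15 in CD4+ (adjusted p = 0.000153) and by 1.32 ± 0.15 in CD8+ cells (adjusted p = 0.000237), and its second bright probe set moved the same way, from group means of 9.28 to 7.94 and of 9.03 to 7.89. Fasn, fatty acid synthase, read 8.41 and 8.28 in naïve CD4+, 9.30 and 9.33 in CD4+ TEM, 9.10 and 9.15 in naïve CD8+ and 9.72 and 9.74 in CD8+ TEM cells. It rose by 0.97 ± 0.13 and 0.60 ± 0.13. Acaca, acetyl-CoA carboxylase, which commits acetyl-CoA to fatty acids, rose by 0.97 ± 0.23 (adjusted p = 0.017) and 0.72 ± 0.23 (adjusted p = 0.0423). The CD4+ call on Acaca was lost under 5 alternatives, with a change down to 0.31 and adjusted p up to 0.183, and the CD8+ call under 7, with adjusted p up to 0.714.

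Elongation and desaturation held the largest change among the 32 genes in either lineage, that of Scd1, and 5 of its 5 genes rose in CD4+ cells while 3 rose and 1 fell in CD8+ cells. Scd1, stearoyl-CoA desaturase, which makes monounsaturated fatty acids, read 3.42 and 2.96 in naïve CD4+ and 11.35 and 11.18 in CD4+ TEM cells. It read 2.74 and 6.42 in naïve CD8+ and 11.79 and 11.78 in CD8+ TEM cells. Scd1 thus went from the floor to a bright signal, and 1 of 4 naïve arrays, the second of naïve CD8+ cells, stood above 6. The log2 change was 8.07 ± 0.95 (adjusted p = 0.00045) in CD4+ and 7.21 ± 0.95 (adjusted p = 0.000495) in CD8+ cells, and 9.05 in CD8+ cells without that array. As most naïve values were at the floor, the size of these differences depends on it. A second Scd1 probe set had group means of 3.22 and 8.17 in CD4+ and 3.17 and 8.38 in CD8+ cells. Scd2, the desaturase paralog, was bright already in naïve cells, at 10.24 and 9.83 in CD4+ and 9.49 and 9.87 in CD8+ cells, and reached 12.44 and 12.34 in CD4+ and 12.36 and 12.39 in CD8+ TEM cells. It rose by 2.35 ± 0.18 and 2.69 ± 0.18. Cross-hybridization between the Scd1 and Scd2 probe sets was not tested.

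Fads2, the desaturase that starts the making of polyunsaturated fatty acids, read 5.89 and 5.73 in naïve CD4+, 9.23 and 9.06 in CD4+ TEM, 4.88 and 5.22 in naïve CD8+ and 9.48 and 9.31 in CD8+ TEM cells. All naïve arrays were under 6 and all TEM arrays above 9. It rose by 3.34 ± 0.25 (adjusted p = 3.75e-05) and 4.35 ± 0.25 (adjusted p = 6.68e-06), while its further probe sets had CD4+ changes of 1.64 and 1.71 and CD8+ changes of 3.11 and 1.73. These probe sets were under 6 on all naïve arrays, and the one with the CD4+ change of 1.64 also on the CD4+ TEM arrays. Fads1, the next desaturase, rose in CD4+ cells, from 6.35 and 6.57 to 7.73 and 7.81, by 1.31 ± 0.21 (adjusted p = 0.00229), while its CD8+ arrays overlapped, at 7.12 and 7.54 in naïve and 7.04 and 7.26 in TEM cells. A second Fads1 probe set had group means of 7.39 in naïve CD4+ and 7.19 in CD4+ TEM cells, so the CD4+ rise rests on 1 probe set. Elovl6, the elongase that lengthens the product of Fasn, read 7.79 and 6.66 in naïve CD4+ and 9.61 and 9.76 in CD4+ TEM cells, and 9.43 and 9.36 in naïve CD8+ and 8.60 and 8.08 in CD8+ TEM cells. With this probe set the lineages moved in opposite directions, by 2.46 ± 0.34 (adjusted p = 0.00109) in CD4+ and -1.06 ± 0.34 (adjusted p = 0.04) in CD8+ cells. The CD8+ call was lost under 7 alternatives, among them the leaving out of each naïve or TEM array other than those of naïve CD4+ cells, and a second Elovl6 probe set had group means of 6.48 and 6.97 in CD4+ and of 6.16 and 6.23 in CD8+ cells. With the mean of its probe sets the CD4+ rise was 0.91 (adjusted p = 0.018).

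Of the 2 export pumps, 1 fell in both lineages, and the result for the other depended on the probe set. Abca1, the cholesterol pump to lipoproteins, read 7.31 and 7.96 in naïve CD4+, 3.33 and 3.55 in CD4+ TEM, 8.99 and 8.48 in naïve CD8+ and 3.68 and 3.88 in CD8+ TEM cells. Every TEM array was at the floor. Abca1 fell by 4.20 ± 0.27 in CD4+ (adjusted p = 1.64e-05) and by 4.95 ± 0.27 in CD8+ cells (adjusted p = 5.26e-06). Its other probe sets had group means of 2.86 to 3.56 and do not bear on the change. Abcg1, its partner pump, read from 9.46 to 10.54 on the 10 arrays with its brightest probe set and did not pass the test, with changes of -0.63 ± 0.27 (adjusted p = 0.127) and -0.36 ± 0.27 (adjusted p = 0.354). Its second probe set read 6.97 and 6.89 in naïve CD4+, 5.51 and 4.68 in CD4+ TEM, 8.73 and 7.19 in naïve CD8+ and 5.41 and 5.34 in CD8+ TEM cells. The filter on variation keeps that probe set, with which Abcg1 fell by 1.84 in CD4+ (adjusted p = 0.0389) and by 2.59 in CD8+ cells (adjusted p = 0.00692). With the mean of both, the changes were -1.24 (adjusted p = 0.0438) and -1.47 (adjusted p = 0.0151).

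Of the 26 calls in CD4+ cells 20 were kept under all alternatives, and those of Mvk, Tm7sf2, Sc5d, Srebf1, Acaca and Fads1 were not. Of the 27 calls in CD8+ cells 23 were kept, and those of Tm7sf2, Srebf2, Acaca and Elovl6 were not.

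**Figure D3:**
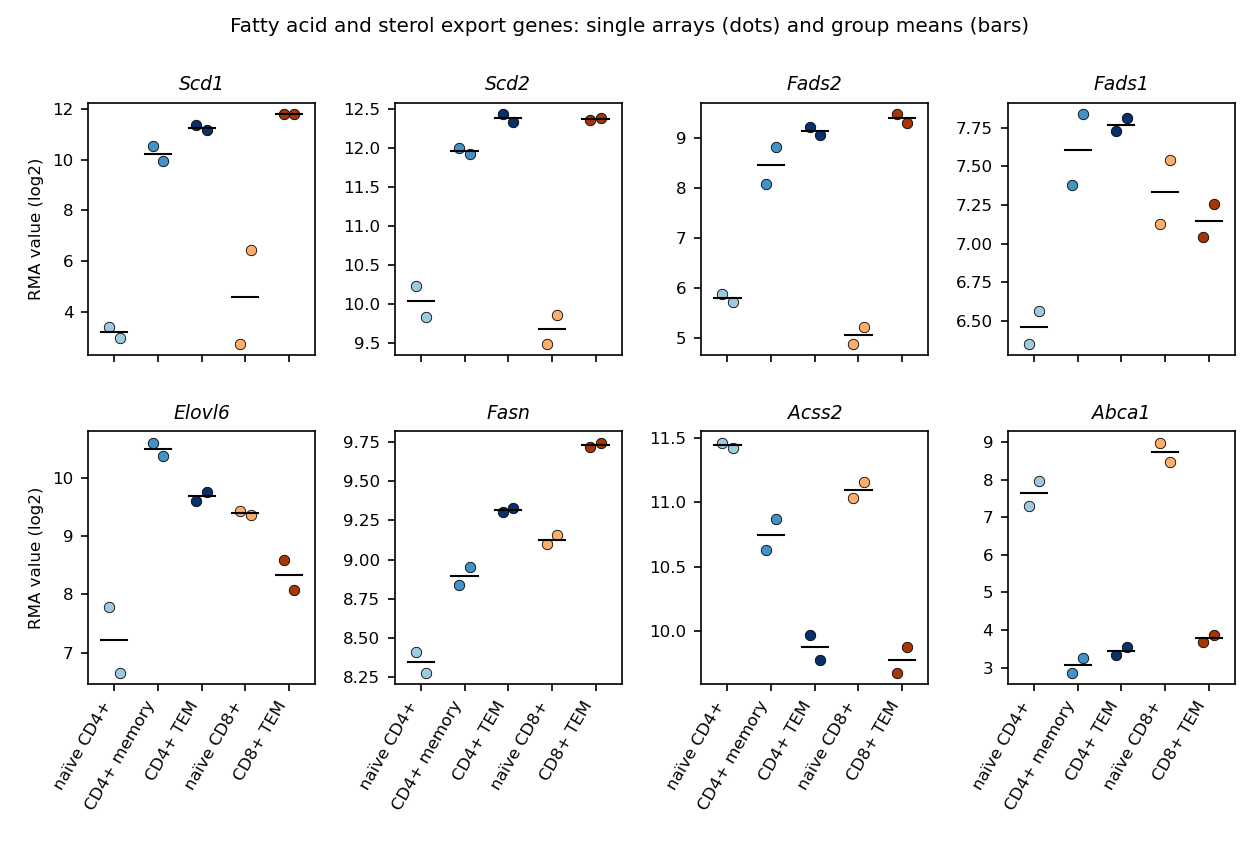
Log2 RMA values (vertical axes, scaled for each gene) of 6 fatty acid genes, Acss2 and Abca1 in the 5 groups. Each dot is 1 array and each bar the mean of 2 arrays. Scd1, Scd2 and Fads2 are high in all 3 cultured groups, Acss2 and Abca1 are high in both naïve groups, and Elovl6 is high in naïve CD8+ cells but low in naïve CD4+ cells.

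The change from naïve to TEM cells was then compared between the lineages, as the CD4+ change minus the CD8+ change. The difference passed the test for 8 of the 32 genes, 3 with a larger CD4+ change and 5 with a larger CD8+ change, where 8.03% and 4.49% of all genes did. All 5 of the latter were sterol enzymes. The differences were -2.07 ± 0.27 for Fdps, -1.78 ± 0.24 for Idi1, -0.996 ± 0.24 for Fdft1, -0.87 ± 0.18 for Cyp51 and -0.86 ± 0.22 for Sqle. With larger CD4+ changes were Elovl6 at 3.52 ± 0.48, Fads1 at 1.49 ± 0.30 and Srebf1 at 1.07 ± 0.24. Of the 8, Fdps, Idi1 and Elovl6 passed under all alternatives, although the Elovl6 difference was 1.30 with the mean of its probe sets (adjusted p = 0.0369), and quantile normalization left 3 and 8 genes, where 6.85% and 6.39% of all genes passed.

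**Figure D4:**
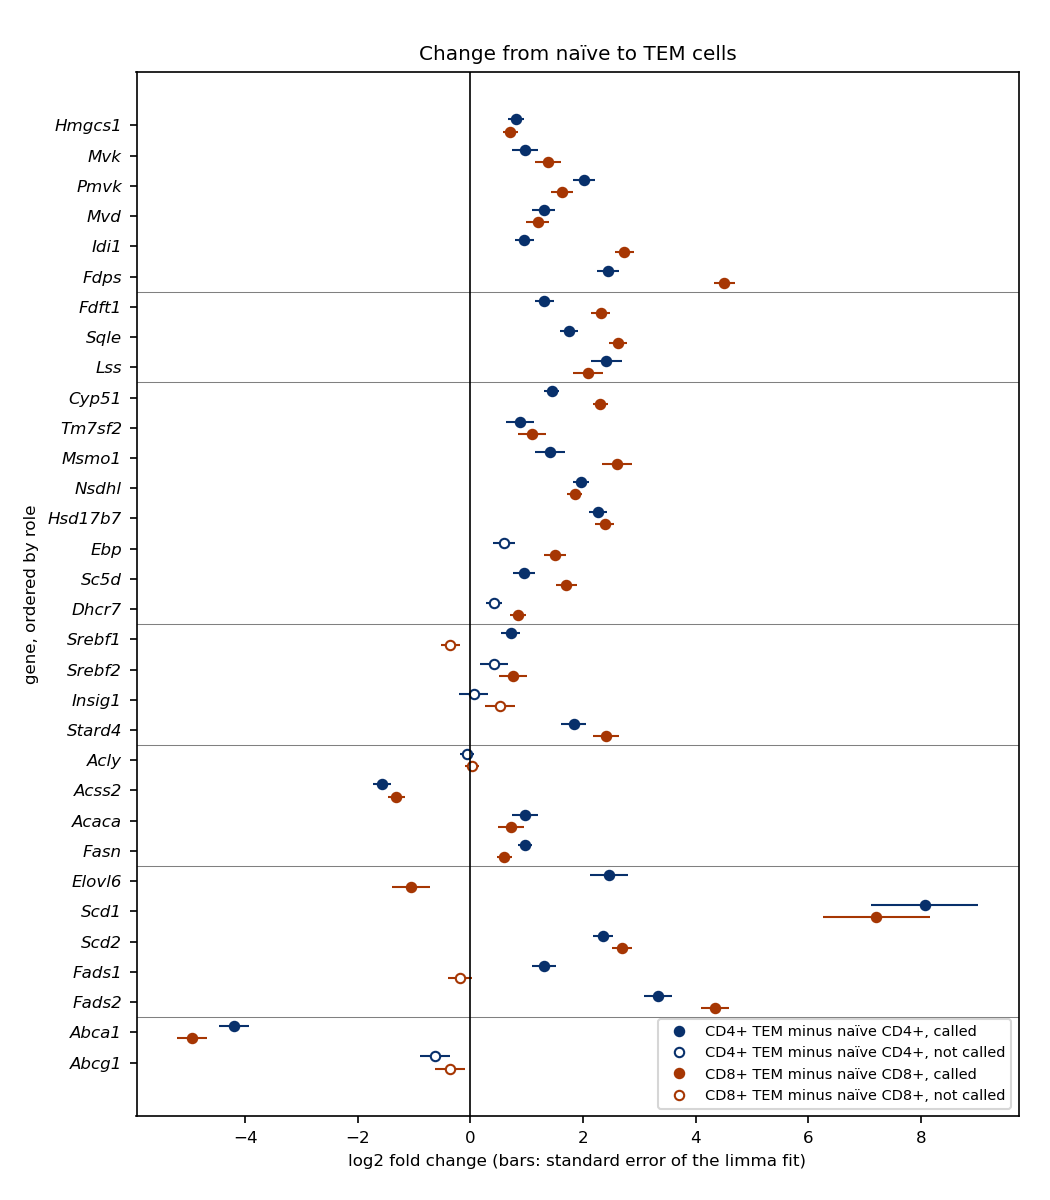
Log2 fold changes from naïve to TEM cells (horizontal axis) of the 32 genes (rows, in order of role), in CD4+ cells (blue) and CD8+ cells (orange). Bars are standard errors of the limma fit, filled circles passed the test and open circles did not. Most sterol enzymes lie right of 0 in both lineages, Idi1 and Fdps lie further right in CD8+ cells, and Elovl6 lies on opposite sides.

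Both ends of this change were also compared between the lineages. Naïve CD8+ and naïve CD4+ cells, a comparison added after the values were seen, differed in 12 of the 32 genes, with 6 higher and 6 lower in CD8+ cells, where 13.9% and 6.65% of all genes were. Lower in naïve CD8+ cells were Idi1, by 1.25 ± 0.17 or 2.37-fold, Fdft1, Fdps, Cyp51, Sqle and Dhcr7. Higher in naïve CD8+ cells were Elovl6, by 2.17 ± 0.34 or 4.51-fold, Abca1, Acaca, Srebf1, Fads1 and Fasn. All 6 lower genes were sterol enzymes, and 4 of the 6 higher ones were genes of fatty acid synthesis, elongation or desaturation. With the mean of its probe sets Elovl6 differed by 0.35 (adjusted p = 0.359), and its second probe set had means of 6.48 in naïve CD4+ and 6.16 in naïve CD8+ cells. Of the 12 calls those of Idi1, Cyp51, Srebf1 and Fasn were kept under all alternatives. Without the second naïve CD8+ array 4 were higher and 9 lower, and after quantile normalization 3 and 12, where 9.97% and 10.7% of all genes were. Fads1 differed by 0.87 ± 0.21 with the brighter probe set, by -0.14 with the mean of its probe sets and by -1.16 (adjusted p = 0.0339) with its other probe set, the one kept by a filter on variation. Between the TEM groups 1 gene was higher in CD8+ cells and 0 were lower (limma, with 3 of 14 lower at an unadjusted p under 0.05), where 3.53% of all genes were higher and 2.19% lower. Quantile normalization left 1 higher and 1 lower, where 3% and 3.18% of all genes were. Fdps was higher in CD8+ TEM cells by 1.18 ± 0.19 (adjusted p = 0.0146) or 2.27-fold, with no overlap between the arrays, a call that was lost when any 1 of the 4 TEM arrays was left out (adjusted p up to 0.115). Among the other 31 genes the 95% intervals reached down to -2.13 for Elovl6, -1.67 for Scd1 and -1.10 for Fads1. They reached up to 2.72 for Scd1 and 1.37 for Acaca. Differences of over 2-fold between the TEM groups are thus not excluded for these genes. For the rest the intervals, not adjusted for the number of genes, lay within a 2-fold change in either direction.

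CD4+ memory cells of the same day were compared with naïve CD4+ cells. Against naïve CD4+ cells 19 of the 32 genes rose, 2 fell and 11 did not pass the test, where 13.5% of all genes rose and 9.78% fell, and the median log2 change was 0.75, against 0.08 over all genes. Quantile normalization shifted the median of all genes by -0.14 and left 16 and 2 genes, where 10.6% and 13.2% of all genes passed. Of the 17 sterol enzymes 12 rose. Fdps read 8.92 and 9.08 in memory cells, a rise of 1.15 ± 0.19 (adjusted p = 0.00363). Pmvk read 9.49 and 9.61, a rise of 1.41 ± 0.20, and Hsd17b7 10.01 and 9.65, a rise of 1.18 ± 0.16, although the change was 0.30 with the mean of its probe sets and did not pass the test. Cyp51 read 10.80 and 10.72, a rise of 0.83 ± 0.13, though with the mean of its probe sets the change was -0.07, since 1 of them had group means of 6.99 in naïve CD4+ and 5.46 in memory cells. Lss, at 8.16 and 7.28, overlapped naïve CD4+ cells and did not pass (0.42 ± 0.27, adjusted p = 0.337), and neither did Idi1, Tm7sf2, Ebp and Dhcr7. Of the 21 calls in memory cells 10 were kept under all alternatives.

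All 5 genes of elongation and desaturation rose in memory cells with their brightest probe sets. The rise of Fads1, by 1.15 ± 0.21, rests on 1 probe set. It was 0.73 with the mean of its probe sets (adjusted p = 0.0528) and 0.32 with its other probe set (adjusted p = 0.488). Scd1 read 10.52 and 9.93 in memory cells, a difference of 7.04 ± 0.95 from naïve CD4+ cells, and Fads2 8.08 and 8.83, a rise of 2.65 ± 0.25. Scd2, at 11.93 or higher on both arrays, rose by 1.93 ± 0.18. Elovl6, at 10.61 and 10.38, had its highest arrays in memory cells, a rise of 3.27 ± 0.34 (adjusted p = 0.000307) or 9.65-fold from naïve CD4+ cells, but its difference from TEM cells did not pass the test (adjusted p = 0.233). Abca1, at 2.87 and 3.25, fell by 4.58 ± 0.27 and was at the floor as in TEM cells. Acss2, at 10.63 and 10.87, fell by 0.69 ± 0.15 (adjusted p = 0.0126), to a level between naïve CD4+ and CD4+ TEM cells.

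Memory cells and TEM cells were compared directly, as the contrasts of either with naïve CD4+ cells share the same control arrays. Here 6 genes were higher and 1 was lower in TEM cells, where 3.89% of all genes were higher and 1.64% lower. The 6 were sterol enzymes. Lss was higher in TEM cells by 2.0 ± 0.27 (adjusted p = 0.00546) or 4.0-fold, Fdps by 1.29 ± 0.19, Hsd17b7 by 1.09 ± 0.16, Nsdhl by 1.01 ± 0.14, Sqle by 0.88 ± 0.16 and Cyp51 by 0.61 ± 0.13. Acss2 was lower in TEM cells, by 0.88 ± 0.15 on the log2 scale (adjusted p = 0.0157). None of these 7 calls was kept under all alternatives, and with only the arrays of memory and TEM cells in the limma fit 0 genes passed, with 15 at an unadjusted p under 0.05. Quantile normalization left 6 higher and 1 lower, where 3.3% and 2.25% of all genes were. With the brightest probe sets the memory mean lay between the naïve CD4+ and the TEM mean for all 17 sterol enzymes. The same held for 29 of the 32 genes, against 40.3% of all genes, the exceptions being Elovl6, Insig1 and Abca1. Further probe sets did not all keep this order. With 1 of them the memory mean was under the naïve CD4+ mean for Hmgcs1 (8.32 and 8.62) and Cyp51 (5.46 and 6.99). The same held for Sc5d (7.27 and 7.62) and, with both means under 6, for Lss (5.39 and 5.84). For Mvk it was above the TEM mean (6.42 and 6.24). The memory mean of Dhcr7 was above the naïve CD4+ mean by only 0.01. Without the first memory array Dhcr7 and Lss were under it. All 9 B cell markers had lower means in TEM than in memory cells, with a median log2 change of -0.46, against -0.03 over all genes. Of the 9, 1 passed the test, where 1.64% of all genes were lower. The part of these markers in the differences was not tested.

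**Figure D5:**
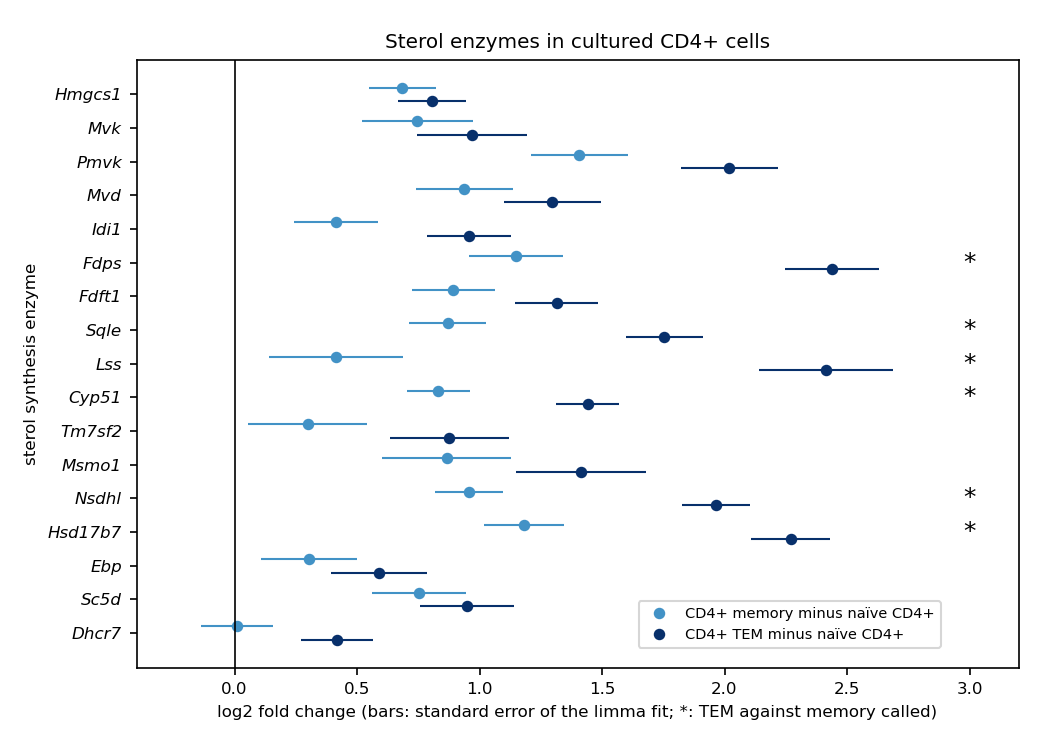
Log2 fold changes from naïve CD4+ cells (horizontal axis) of the 17 sterol enzymes (rows, in pathway order) in CD4+ memory cells (light blue) and CD4+ TEM cells (dark blue), which share the naïve arrays. Bars are standard errors of the limma fit, and stars mark the 6 genes for which TEM against memory passed the test. In every row the memory point lies left of the TEM point, with the widest gap in Lss.

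Other genes of sterol and lipid handling were read from a list of 27, of which 24 were measured. From naïve to TEM cells 8 rose and 3 fell in CD4+ cells and 13 rose and 2 fell in CD8+ cells, and in memory cells 6 rose and 2 fell, where 16.4% and 10.1%, 20.9% and 17.2%, and 13.5% and 9.78% of all genes rose and fell. The medians over the 24 were 0.12, 0.60 and 0.10, against 0.02, 0.06 and 0.08 over all genes. Between the lineages 1 gene had the larger CD4+ and 3 the larger CD8+ change, where 8.03% and 4.49% of all genes did. Against memory cells 1 gene was higher in TEM cells, where 3.89% of all genes were. Between the TEM groups 1 was higher and 1 lower in CD8+ cells, where 3.53% and 2.19% of all genes were. Between naïve cells 3 were higher and 3 lower in CD8+ cells, where 13.9% and 6.65% of all genes were. Me1, malic enzyme, which supplies NADPH for lipid synthesis, read 3.65 and 3.11 in naïve CD4+, 10.998 and 10.72 in CD4+ TEM, 8.42 and 7.94 in CD4+ memory, 2.70 and 3.06 in naïve CD8+ and 11.72 in both CD8+ TEM arrays. Like Scd1 it went from the floor to a bright signal, by 7.48 ± 0.25 (adjusted p = 6.4e-07) and 8.85 ± 0.25 (adjusted p = 3.27e-07) in CD4+ and CD8+ TEM cells and by 4.80 ± 0.25 in memory cells, and it was higher in TEM than in memory cells by 2.68 ± 0.25. Slc25a1, which carries citrate out of mitochondria to Acly, rose by 2.49 ± 0.13, 2.53 ± 0.13 and 2.12 ± 0.13 in the same 3 comparisons. Mylip, a ubiquitin ligase gene induced by the liver X receptors, read 8.12 and 8.18 in naïve CD4+ and 8.09 and 8.06 in naïve CD8+ cells against at most 6.58 in the cultured groups. It fell by 2.22 ± 0.26, 3.30 ± 0.26 and 1.76 ± 0.26 in CD4+ TEM, CD8+ TEM and memory cells. Lpcat3, a phospholipid acyltransferase gene that these receptors also induce, rose instead, by 1.43, 1.23 and 1.01. Gpam, which starts glycerolipid synthesis, had a CD4+ change larger than its CD8+ change by 1.46 ± 0.37 (adjusted p = 0.0415), although neither change passed the test on its own.

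Fatty acid oxidation is the opposite route. Of 12 of its genes measured, 4 rose and 1 fell in CD4+ TEM, 5 rose and 3 fell in CD8+ TEM and 4 rose and 2 fell in memory cells, with medians of 0.25, 0.26 and 0.10. The shares of all genes that rose and fell, as above, were 16.4% and 10.1%, 20.9% and 17.2%, and 13.5% and 9.78%. The change differed between the lineages for 0 of the 12 (limma, with 3 at an unadjusted p under 0.05). Of all genes 8.03% had the larger CD4+ and 4.49% the larger CD8+ change. In TEM against memory cells 1 of the 12 was higher, where 3.89% of all genes were. In CD8+ against CD4+ TEM cells 1 was higher, where 3.53% of all genes were. Naïve CD8+ cells had 1 higher and 1 lower than naïve CD4+ cells, where 13.9% and 6.65% of all genes were. Acadl, a long-chain acyl-CoA dehydrogenase, rose by 1.43 ± 0.14 in CD4+, 1.98 ± 0.14 in CD8+ TEM and 1.25 ± 0.14 in memory cells. Decr1, which handles unsaturated acyl chains, rose by 1.89 ± 0.24, 1.90 ± 0.24 and 0.86 ± 0.24, and Cpt2, the inner carnitine acyltransferase, by 1.75 ± 0.36, 1.62 ± 0.36 and 1.62 ± 0.36. Etfdh, which passes electrons from this route to the respiratory chain, passed the test between naïve cells, where it was higher in CD8+ cells by 1.10 ± 0.25 (adjusted p = 0.0161).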

How the data were processed

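Gene expression of sorted mouse T cells was measured on 10 Affymetrix mouse arrays. The deposited values, from 1.68 to 14.86, are on the log2 scale and were made by the authors with RMA in the program BRB-ArrayTools (version not given in the sources used here). Groups were taken from titles and source names. Label entries that contradict these (germinal center B cells in the description, unequal foxo1 entries within groups, an edited lymphoma line in the design text) were set aside. No column of sample values was left unused.

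Of 45101 probe sets, 34945 had 1 gene symbol in the platform annotation, 932 with several and 9160 without one were left out, and 64 were controls. Each gene was read from its brightest probe set, by the average of all arrays, giving 18193 genes. Group means were fitted to all 10 arrays (5 residual degrees of freedom) with limma 3.58.1 in R 4.3.3, with eBayes, and p-values were adjusted within each comparison over every gene (Benjamini-Hochberg). Genes with adjusted p under 0.05 were called, and errors are standard errors of the fit. The spread was pooled over the 5 groups. The fit was tested on simulated data with known changes. Figures used matplotlib 3.10.9.

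The 32 genes, and the lists of 27 other sterol and lipid genes, 12 fatty acid oxidation genes, cell type markers and silent genes, were chosen with earlier results of these data known. All 32 genes are described, and of each other list up to 4 called genes with the largest change. Lpcat3, and markers named beyond that, were chosen after their values were seen. Alternatives were the mean of all probe sets, unmarked probe sets only, filters on dim genes and on variation, quantile normalization, an intensity trend, only the compared groups, a replicate block, a 2-fold limit with no test, and leaving out each array. The promoter windows are from RefSeq, GRCm38.p6.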

Additional observations from a re-analysis of the deposited data

Results flagged for a closer look

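For 8 of the 32 genes the change from naïve to TEM cells differed between CD4+ and CD8+ cells by the test of the difference itself (limma, 2 arrays in each of the 4 groups). Of these, 3 had the larger CD4+ change and 5 the larger CD8+ change, where 8.03% and 4.49% of all genes did. The values are log2 changes, and the difference is the CD4+ change minus the CD8+ change. Fdps changed by 2.44 and 4.51 (difference -2.07, adjusted p = 0.00346), Idi1 by 0.96 and 2.73 (difference -1.78, adjusted p = 0.00389), and Fdft1 by 1.31 and 2.31 (difference -0.996, adjusted p = 0.0323). Cyp51 changed by 1.44 and 2.31 (difference -0.87, adjusted p = 0.0197) and Sqle by 1.75 and 2.62 (difference -0.86, adjusted p = 0.0415). In the other direction were Elovl6 with 2.46 and -1.06 (difference 3.52, adjusted p = 0.00403), Fads1 with 1.31 and -0.18 (difference 1.49, adjusted p = 0.016) and Srebf1 with 0.72 and -0.36 (difference 1.07, adjusted p = 0.0252). The Fads1 difference was 0.81 with the mean of its probe sets (adjusted p = 0.17) and 0.12 with its other probe set, the one kept by the filter on variation (adjusted p = 0.889). Only Fdps, Idi1 and Elovl6 passed under all alternatives, and the Elovl6 difference was 1.30 with the mean of its probe sets (adjusted p = 0.0369). The groups held 2 arrays each, so no single array could be tested as standing apart.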

How the results depend on the processing

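Of 2196 values of single genes recomputed under the alternatives, 1976 kept their direction and their side of the threshold, 185 lost a call, 23 gained one and 12 reversed. The reversed changes were Fads1 in CD4+ TEM cells (-0.21 with the variation filter), Fads1 between naïve cells (-0.14 with the mean of all probe sets, -1.16 with the variation filter), Acly in CD8+ TEM cells (-0.0772 with quantile normalization), and in memory cells Cyp51 (-0.0687 with the mean of all probe sets) and Tm7sf2 (-0.04 with quantile normalization). With each array left out in turn, Fads1 in CD8+ TEM cells ranged from -0.39 to 0.0237, and in memory cells Lss from -0.0265 to 0.86, Dhcr7 from -0.0305 to 0.0521, Srebf2 from -0.0929 to 0.71 and Acly from -0.15 to 0.062.

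Numbers of the 32 genes that rose and fell moved by over 1.5 times as follows, and the cause was not tested. For CD4+ against CD8+ changes, 1 and 2 genes with the variation filter, where 24 of the 32 were tested, and 8 with the larger CD8+ change after quantile normalization. In memory cells 9 rose and 1 fell by the 2-fold limit, and 1 fell with unmarked probe sets only and with only the compared groups. For TEM against memory cells 0 were higher with only the compared groups, and 0 lower with the mean of all probe sets, unmarked probe sets, only the compared groups or the 2-fold limit. For CD8+ against CD4+ TEM cells 2 were higher with only the compared groups, and 1 was lower under 6 alternatives (dim genes left out, variation filter, quantile normalization, trend, only the compared groups, 2-fold limit). Between naïve cells 3 were higher with the variation filter and with quantile normalization, and 12, 3 and 2 were lower with quantile normalization, only the compared groups and the 2-fold limit.

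With each array left out in turn, 19 to 25 genes rose and 2 to 3 fell in CD4+ TEM cells, 21 to 24 and 2 to 3 in CD8+ TEM cells, and 14 to 19 and 1 to 3 in memory cells. The lineage difference had 1 to 4 and 2 to 7 genes, TEM against memory cells 3 to 6 and 0 to 1, CD8+ against CD4+ TEM cells 0 to 2 and 0 to 1, and naïve CD8+ against naïve CD4+ cells 4 to 6 and 3 to 9. The lineage difference fell to 2 genes with larger CD8+ change without either naïve CD4+ array, the second CD4+ TEM array or either CD8+ TEM array (3 without the first CD4+ TEM array), and to 1 with larger CD4+ change without the first naïve CD4+, second CD4+ TEM or first CD8+ TEM array. TEM against memory cells had 3 higher genes without the first CD4+ TEM array and 0 lower without either CD4+ TEM or the second memory array. Of the genes that fell in memory cells 1 was left without either naïve CD4+ array or the first memory array. CD8+ against CD4+ TEM cells had 0 higher genes without any 1 of the 4 TEM arrays, 2 without either memory array, and 1 lower without either naïve CD4+ array. Naïve CD8+ cells had 3 lower genes without either naïve CD4+ array.

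No pairing of arrays by replicate number was seen, as the deviations of same-numbered arrays from their group means correlated at -0.04 to 0.03 over the 10 pairs of groups. This was computed over all genes, many of them near the floor, and cannot show whether same-numbered arrays share an origin. With the replicate block, 25 rose and 2 fell in CD4+ TEM cells, 23 and 3 in CD8+ TEM cells and 17 and 2 in memory cells, the lineage difference had 3 and 4 genes, TEM against memory 5 and 1, CD8+ against CD4+ TEM 1 and 0, and naïve cells 6 and 6. Values under 6 are near the floor of the arrays, which limits the naïve levels of Scd1 and Fads2 and the cultured levels of Abca1.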
